A study of Mus musculus with 8 samples.

Results

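The 183 genes described here rose in mouse retinal organoids at both 8 and 24 h after dTAG-13 was added to degrade METTL3. A gene was taken when its FPKM (fragments per kilobase of transcript, normalised to library depth) gave a log2 ratio to 0 h of at least 0.8 at 8 h and at 24 h, with 0.1 FPKM added to both values, and when the deposited interval at each time lay wholly above that at 0 h. It also had to hold at least 10 estimated counts and 1 FPKM in a condition of each comparison. Genes named as numbered zinc fingers (Zfp), ribosomal proteins or histones were left out. Of 10817 genes that could be tested at both times, 1.69% were raised in both, and 0.259% (28 genes) were lowered in both by the same limits. The ratios at 8 and 24 h chose the genes, so they are given as a description and carry no test. The 1 h ratios and the structure of the transcripts were not used in the choice.

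METTL3 is the catalytic subunit of the nuclear complex that writes N6-methyladenosine (m6A) on messenger RNA, together with METTL14 and the adaptor WTAP. The mark lies mostly in a short consensus whose commonest form is GGACT, in long exons and around stop codons, because exon junction complexes bound beside splice junctions keep the writer away. Cytoplasmic YTHDF proteins bind the mark and speed the decay of the RNA that carries it.

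All samples were day 6 organoids from Rx:GFP mouse cells, which carry a reporter at the eye field gene Rax, with FKBP12F36V-HA fused to the C terminus of METTL3 at both endogenous alleles, so the control organoids carry the tagged enzyme too. The FKBP12F36V tag is a degron, through which the compound dTAG-13 delivers the protein to the ubiquitin system. The 4 groups were 0 h (untreated) and 1, 8 and 24 h of 125 nM dTAG-13, with 2 replicates each. The protocol names treatment on days 5 and 6 without saying which groups began when. The labels do not say whether the 0 h organoids received solvent, and only a single knock-in line is named. No line without the tag was analysed here, so the loss of METTL3 and other effects of the compound cannot be told apart.

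Each deposited table sets 1 treated time against 0 h and holds 1 value per condition, already combined over the replicates. The labels mention repeated rounds of library preparation and sequencing, which these columns do not separate, so such a batch cannot be told apart here. The spread between replicates is not visible, and the error given below in parentheses is the authors' deposited interval, whose level the sources used here do not state. Estimated counts summed to between 31361518 and 32562075 per condition. Mettl3 RNA itself was 19.4 FPKM at 0 h and 19.4 at 8 h, and 17.0 (8.50 to 25.5) at 24 h; the protein was not measured. The eye field genes Rax (49.7 FPKM) and Pax6 (126 FPKM) were expressed at 0 h, and markers of pluripotent cells were present beside them. In bulk RNA, a change in the share of a cell type and a change of RNA per cell cannot be told apart. The summed FPKM of the eye field list went from 1204 at 0 h to 1442 at 8 h and 1424 at 24 h, and that of the 13 pluripotency markers from 349 to 308 and 234. Neuronal markers summed to 11.5 FPKM at 0 h, 11.1 at 8 h and 9.69 at 24 h, with Pou4f2 at 0. Pigment epithelium markers summed to 67.3, 84.2 and 104, with Tyr at 0. None of the raised genes is on these lists, and the part of such shifts in the results was not tested.

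Because the position of the consensus relative to the stop codon and to splice junctions bears on m6A, a GGACT and its surroundings are shown for 8 of the raised genes. They are the genes with the largest ratios that have a GGACT within 50 bases of the end of the coding sequence, the RNA export gene Nxt1, the writer adaptor gene Wtap and the photoreceptor gene Crx. Each sequence is 30 bases of the annotated sense strand (GENCODE M21 on GRCm38), with GGACT in capitals. These are matches to letters in the annotation, and methylation was not measured.
Fkbpl: gggctggctcggGGACTgcgcaagatgttt
Aunip: gctctttacccaGGACTctgagggtaatcg
Mblac1: ggttgcttgactGGACTccagtcaggaaag
Prr7: ccttgttcgggaGGACTacagccgtataga
Baat: tcagctctgagtGGACTtgattatattcct
Nxt1: cttccggttccaGGACTgggccagctagtg
Wtap: tcagaatggcttGGACTcaaatgtaaatgt
Crx: catggaccctctGGACTacaaagatcagag

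In Fkbpl (chr17:34646268-34646297, plus strand) the GGACT lies 21 bases before the end of the coding sequence and 1037 bases from the only splice junction. In Aunip (chr4:134523723-134523752, plus strand) it lies 31 bases before the end and 783 bases from a junction. The Mblac1 transcript has no junction at all, and its site (chr5:138195171-138195200, plus strand) is in the 3′ UTR, 5 bases after the end. The Prr7 site (chr13:55472962-55472991, plus strand) is 14 bases before the end and the Baat site (chr4:49489800-49489829, minus strand) 5 bases after it, in the 3′ UTR. The Nxt1 site (chr2:148675736-148675765, plus strand) is 13 bases before the end and 468 bases from a junction. In Wtap (chr17:12967487-12967516, minus strand) the distances are 34 and 549 bases, and in Crx (chr7:15867805-15867834, minus strand) 40 and 607 bases. All 8 were chosen for a site beside the stop codon, and the share of all raised genes with such a site is given below.

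Across the 183 genes the log2 ratio had a median of 1.06 at 8 h (range 0.80 to 2.02) and 1.04 at 24 h (0.80 to 2.18), which the threshold of 0.8 bounds from below. In all, 89 genes reached a log2 ratio of 1 at both times and 8 reached 1.5. Before treatment they were expressed at a median of 7.38 FPKM (0.355 to 180.5), against 14.5 FPKM over all tested genes. At 8 h their median was 14.9 FPKM, beside 15.3 for all tested genes. By the level at 0 h, 2.96% of tested protein-coding genes under 5 FPKM belonged to them, 1.98% of those between 5 and 20 and 0.846% of those above 20. The 0 h level also enters the ratio that chose the genes, so nothing is read from these shares. At 0 h, 19 of the genes were under 1 FPKM and passed the filter through the treated condition. By estimated counts, 182 of 183 genes were at least 1.5-fold higher at 8 h and 182 at 24 h. The counts come from the same libraries and this limit is looser than that of the rule, so this is no separate support. With count ratios in place of FPKM ratios in the rule, 168 of the 183 were kept. The gene under 1.5-fold was Nup50, a nuclear pore component, whose counts gave log2 ratios of 0.55 and 0.56.

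**Figure D1:**
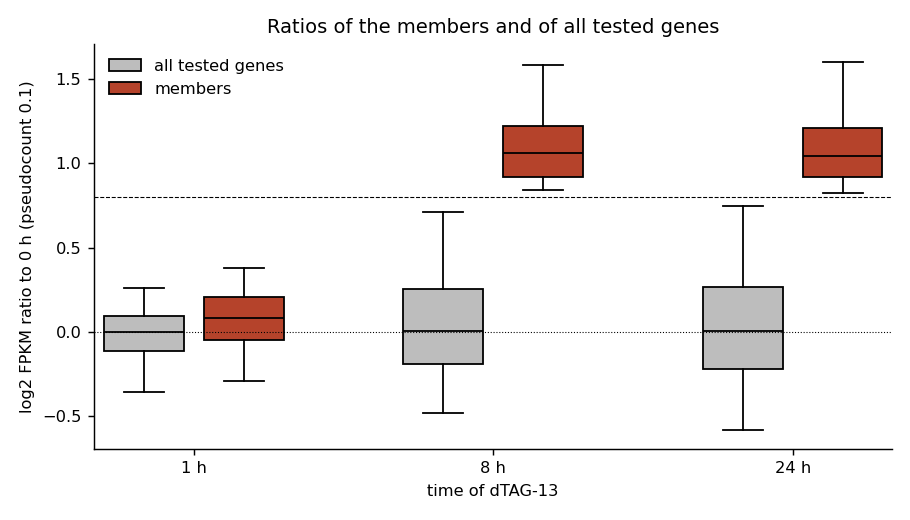
Log2 FPKM ratio to 0 h (vertical axis, pseudocount 0.1 FPKM) at 1, 8 and 24 h for the 183 raised genes (red) and all tested genes (grey); boxes span the quartiles with the median as a line, whiskers reach the 5th and 95th percentiles, and the dashed line is the threshold of 0.8 that chose the genes at 8 and 24 h. At 1 h, which was not used in the choice, the median is 0.09 for the raised genes and 0.00 for all tested genes.

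The genes with the largest ratios were of varied function. Rab33a, a small GTPase of vesicle traffic (chromosome X, 48519285 to 48530232), went from 0.767 FPKM (0.308 to 1.23) to 3.42 (2.32 to 4.52) at 8 h and 3.86 (2.65 to 5.06) at 24 h, log2 ratios of 2.02 and 2.18. Lingo3, a leucine-rich repeat protein of the neuronal surface, went from 0.721 (0.391 to 1.05) to 3.03 (2.27 to 3.78) and 3.48 (2.63 to 4.34). For both genes the later value lay slightly above the 8 h value, with overlapping intervals. Baat, a bile acid conjugating enzyme, rose from 0.355 (0.0587 to 0.651) to 1.58 (0.918 to 2.25) and 1.29 (0.763 to 1.82). Hpdl, a mitochondrial dioxygenase-like protein, rose from 0.746 (0.400 to 1.09) to 2.66 (1.89 to 3.44) and 2.56 (1.80 to 3.32). All 4 were below 1 FPKM before treatment and passed the FPKM filter through the treated condition.

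Fkbpl, an immunophilin-like protein, combined a large ratio with moderate abundance. It went from 7.30 FPKM (5.45 to 9.16) to 28.4 (22.6 to 34.2) at 8 h and 25.8 (19.9 to 31.6) at 24 h, log2 ratios of 1.94 and 1.80. Aunip, a protein of spindle poles and DNA break repair, went from 13.6 (10.6 to 16.7) to 42.4 (34.0 to 50.9) and 39.9 (31.8 to 48.0), ratios of 1.63 and 1.54. In these 2 genes the treated intervals began well above the end of the 0 h interval. The other leading genes were B3galt4 (1.44 and 1.80), a galactosyltransferase of ganglioside synthesis, Nlgn3 (1.68 and 1.48), a postsynaptic adhesion protein, Mblac1 (1.51 and 1.62) and Prr7 (1.52 and 1.60). B3galt4 (0.964 FPKM at 0 h) and Nlgn3 (0.530) also passed the FPKM filter only through the treated condition.

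**Figure D2:**
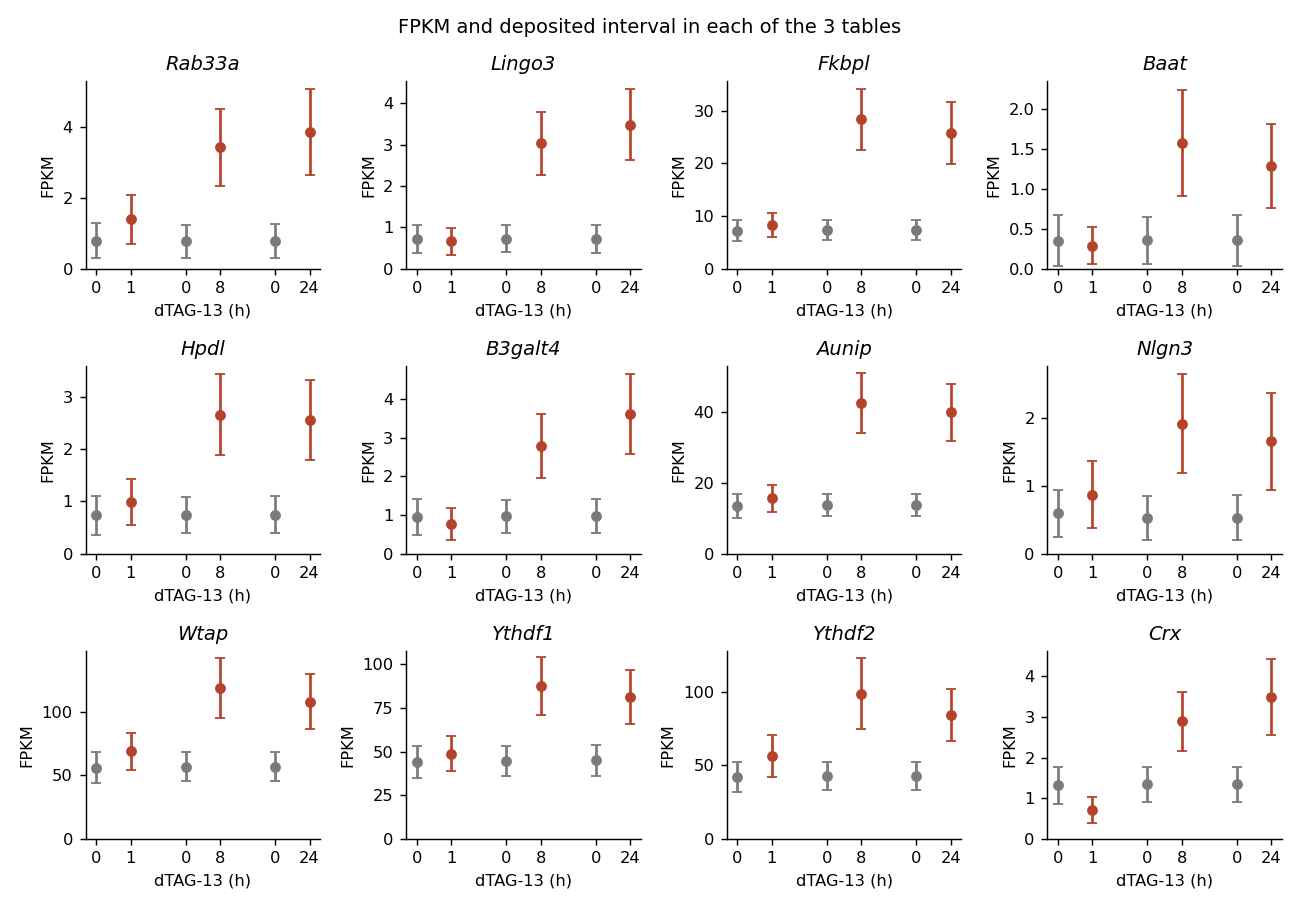
FPKM (vertical axis, linear from 0) with the deposited interval as bars, in each of the 3 tables, for the 8 genes with the largest mean ratio and for Wtap, Ythdf1, Ythdf2 and Crx; grey points are 0 h and red points the treated condition of the same table (horizontal axis, hours of dTAG-13). Red intervals at 8 and 24 h lie above the grey ones in every panel, as the rule required, while those at 1 h overlap.

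Of the 13 tested genes on the list of m6A writers, erasers and readers, 3 were raised at both times (23.1%, against 1.69% of all tested genes). None was lowered at either. Of all tested genes, 2.29% were raised and 0.431% lowered at 8 h, and 2.65% were raised and 0.971% lowered at 24 h. The list's median log2 ratio was 0.18 at 8 h and 0.22 at 24 h, beside 0.00 for all tested genes at both. Wtap, whose product holds the writer complex together at nuclear speckles, went from 56.9 FPKM (45.4 to 68.4) to 119 (95.8 to 143) at 8 h and 108 (86.4 to 130) at 24 h. The reader gene Ythdf2 went from 42.6 (33.2 to 52.0) to 98.7 (74.5 to 123) and 83.8 (66.1 to 101). Ythdf1, a paralogous reader, went from 44.8 (36.1 to 53.5) to 87.5 (70.9 to 104) and 81.2 (65.6 to 96.7). All 3 were lower at 24 h than at 8 h, within their intervals. The third paralogue, Ythdf3, had log2 ratios of 0.39 and 0.25, and the writer subunit Mettl14 had -0.05 and -0.06, and neither passed. The complex member Cbll1 had 0.75 and 0.73, just under the fold limit.

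Genes of RNA processing, export and transcription formed the largest functional group, with 20 genes. These groups were made from textbook roles after the genes were known. They place 104 of the 183 genes and support no count. Nxt1, a cofactor of the mRNA export receptor, went from 59.2 FPKM (47.4 to 71.0) to 163 (132 to 194) at 8 h and 173 (139 to 206) at 24 h. Only Apex1 and Eif1a were more abundant among the raised genes at 8 h. Lsm10, a subunit of the U7 particle that processes histone mRNA, went from 15.7 (11.9 to 19.5) to 41.9 (33.1 to 50.7) and 50.02 (39.6 to 60.5). Phax, the export adaptor of small nuclear RNA, went from 38.8 (25.7 to 51.9) to 92.4 (66.3 to 119) and 97.0 (69.5 to 124). Each of these named products acts on the maturation or export of RNA. Clp1, an RNA kinase of 3′ end formation and tRNA splicing, had log2 ratios of 1.18 and 1.17. Cmtr2, a cap methyltransferase, had 1.13 and 1.04, and the Mediator subunit Med18 had 1.36 and 1.31.

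Subunits of a ribonuclease stood within this group. Of 6 tested genes for subunits of RNase P and RNase MRP, enzymes that cleave tRNA and rRNA precursors, 3 were raised at both times. That share is 50%, against 1.69% of all tested genes. The median log2 ratio of the 6 was 0.82 at 8 h and 0.79 at 24 h. Rpp38 went from 12.01 FPKM (9.11 to 14.9) to 31.0 (24.5 to 37.6) and 27.7 (21.7 to 33.7). Rpp25 had log2 ratios of 1.01 and 1.06 and Rpp25l of 1.17 and 1.16. All 3 have a single coding exon. The family was picked by its shared name after the genes were seen. Of the list of 44 genes for mRNA decay and translation control, none was raised at either time, with medians of 0.08 and 0.01. Of all tested genes, 2.29% were raised at 8 h and 2.65% at 24 h, so nothing is read from this count. The raised genes Ythdf2, a reader of the family that speeds decay, and Smg8 are not on that list.

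The group of nuclear genes for mitochondrial proteins held 15, and Hpdl was not placed in it. Mrps2, of the small mitochondrial ribosomal subunit, went from 35.6 FPKM (28.7 to 42.5) to 86.8 (70.3 to 103) at 8 h and 84.1 (67.9 to 100.3) at 24 h. Mrpl43 went from 27.3 (21.6 to 33.0) to 58.9 (47.4 to 70.5) and 68.2 (54.7 to 81.7). Of 74 tested mitochondrial ribosomal protein genes, Mrps2, Mrpl43, Mrpl46 and Mrpl16 were raised at both times (5.41%, against 1.69% of all tested genes), while the median log2 ratio of the 74 was 0.01 at 8 h and 0.05 at 24 h. Of 8 tested complex I assembly factors, Ndufaf4 (1.10 and 1.31) and Ndufaf1 (1.01 and 1.10) were raised at both times (25%, against 1.69%). Both families were picked by shared names after the genes were seen, so nothing is read from their shares. Lipt1, which transfers the lipoyl cofactor to mitochondrial enzymes, rose from 3.56 FPKM to 8.63 and 10.1 and overlaps another expressed locus.

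The most abundant of all the genes was in the group of DNA repair and chromosome segregation, which held 11. Apex1, the main endonuclease of base excision repair, went from 180.5 FPKM (140 to 221) to 329 (257 to 400) at 8 h and 335 (262 to 409) at 24 h, but its locus overlaps the expressed gene Tmem55b. Exo1, a mismatch repair exonuclease, went from 37.1 (23.3 to 50.9) to 93.4 (58.2 to 129) and 81.4 (52.1 to 111). Fen1, the flap endonuclease of DNA replication, went from 63.1 (49.7 to 76.4) to 118 (94.8 to 142) and 120.1 (96.1 to 144), and overlaps Tmem258. All 3 nuclease genes were among the 28 raised genes with at least 50 FPKM at 8 h.

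Ubiquitin ligase components numbered 12. Of the 86 tested genes on the list of ubiquitin ligases and cullin adaptors, 5 were raised at both times (5.81%, against 1.69% of all tested genes). At 8 h 9 were raised and at 24 h 9, and none was lowered at either. Of all tested genes, 2.29% were raised and 0.431% lowered at 8 h, and 2.65% and 0.971% at 24 h. The list's medians were 0.32 and 0.29. The 5 were the cullin-3 adaptors Klhl9, Klhl36, Kbtbd2 and Kbtbd6 and the F-box gene Fbxo30. Klhl9 went from 32.3 FPKM (26.2 to 38.5) to 58.5 (47.5 to 69.5) at 8 h and 61.5 (49.8 to 73.2) at 24 h. Klhl36 went from 2.26 FPKM to 4.96 and 5.34. Kbtbd6 had log2 ratios of 1.13 and 1.17, Kbtbd2 of 1.00 and 0.94 and Fbxo30 of 0.97 and 0.85.

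Small GTPases and their effectors gave 9 genes, of which 6 have a single coding exon. Arf6, a regulator of membrane recycling, went from 53.8 FPKM (42.0 to 65.7) to 101 (79.9 to 121) at 8 h and 97.2 (76.7 to 118) at 24 h. Eras, a Ras protein of embryonic stem cells, went from 4.68 (2.56 to 6.79) to 11.8 (8.16 to 15.5) and 14.7 (10.6 to 18.8) and overlaps another expressed locus. The summed FPKM of the pluripotency markers went down at these times, as given above, and a relation of Eras to the share of such cells was not tested. Rasl11a had log2 ratios of 1.57 and 1.27, Rab9 of 1.16 and 1.12 and Rhog of 0.94 and 0.99.

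The 14 genes for neuronal surface proteins, receptors and channels were mostly scarce. Besides Lingo3 and Nlgn3, Lrrn2 went from 0.859 FPKM (0.530 to 1.19) to 2.42 (1.79 to 3.05) at 8 h and 2.64 (1.94 to 3.34) at 24 h. Kcnj4, an inward rectifier potassium channel, went from 0.890 (0.536 to 1.24) to 1.93 (1.35 to 2.51) and 2.17 (1.53 to 2.81). Of 66 tested genes on the list of cell surface receptors and adhesion genes, none was raised at both times, against 1.69% of all tested genes. That list had medians of 0.25 and 0.19, and the 14 genes lay outside it. Among 9 genes for glycan-modifying enzymes, 3 were carbohydrate sulfotransferases (Chst1, Chst12 and Chst14). They were 3 of 9 such genes tested (33.3%, against 1.69% of all tested genes). This family was picked by its shared name after the genes were seen, so nothing is read from that share. The median ratio of those 9 tested genes was 0.54 at 8 h and 0.58 at 24 h. Chst14 and Dse (0.99 and 1.02) act in successive steps of dermatan sulfate synthesis.

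Transcription factors and cofactors gave 10 genes. Crx, the homeobox factor of photoreceptor precursors (chromosome 7, 15865947 to 15879968), went from 1.34 FPKM (0.908 to 1.77) to 2.89 (2.16 to 3.62) at 8 h and 3.49 (2.56 to 4.41) at 24 h. Cbx2, a chromodomain subunit of Polycomb repressive complex 1, went from 26.3 (21.3 to 31.4) to 59.2 (48.1 to 70.4) and 49.4 (39.9 to 58.8). Hey1, a Notch response factor, went from 4.25 (3.17 to 5.33) to 8.03 (6.24 to 9.82) and 8.41 (6.51 to 10.3). Cbx2 was 1 of 48 tested Polycomb and histone-modifying genes (2.08%) to be raised at both times, and Zbtb3 (1.06 and 1.09) 1 of 39 zinc finger factors (2.56%), shares near the 1.69% of all tested genes. Hey1 was 1 of 13 bHLH and Notch response genes. Of 20 tested eye field genes, none was raised at both times, while 4 were raised and 1 lowered at 24 h. At that time 2.65% of all tested genes were raised and 0.971% lowered. Among 37 feedback inhibitors of signalling the phosphatase gene Dusp16 (0.88 and 0.92) was raised at both, again a share (2.70%) near that of all tested genes. The lists of SOX and POU, KLF, AP-1, FOX, MYC, cell cycle, nuclear receptor, hypoxia and p53 genes held none. Beside a share of 1.69% among all tested genes, nothing is read from this. Ndp, which encodes the retinal vascular signal norrin, had log2 ratios of 1.59 and 1.32.

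**Figure D3:**
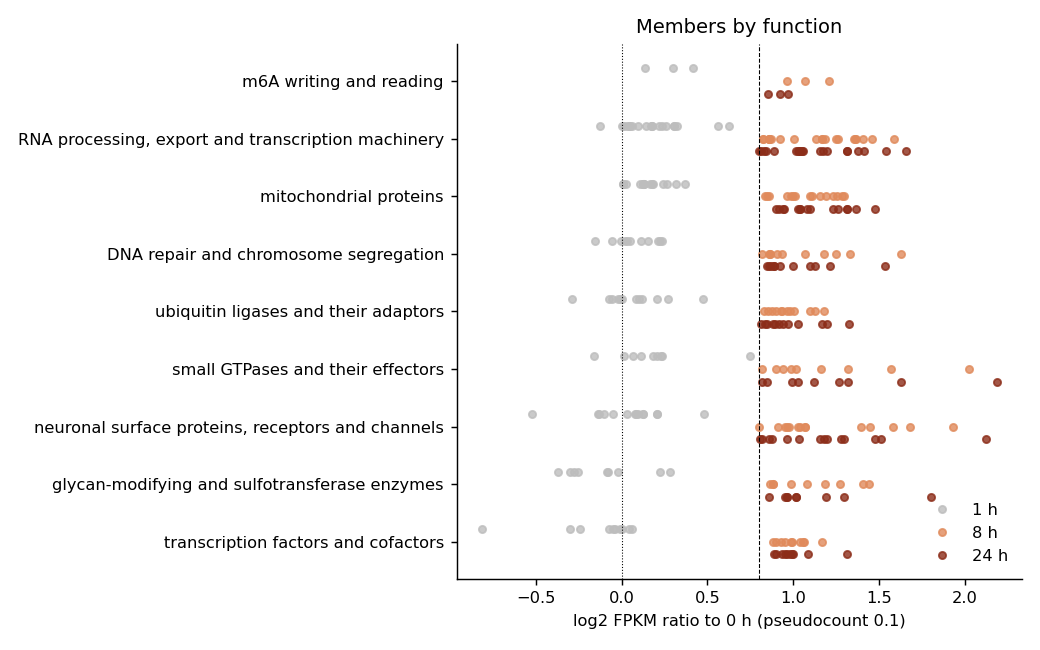
Log2 FPKM ratio to 0 h (horizontal axis, pseudocount 0.1 FPKM) of the raised genes by function; each point is a gene, in grey at 1 h, orange at 8 h and dark red at 24 h, and the dashed line is the threshold of 0.8. The 9 groups plotted have medians at 8 h between 0.93 and 1.17, bounded from below by the threshold, and the small GTPase and neuronal surface groups hold the genes above 1.9.

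At 1 h no raised gene had an interval apart from that at 0 h, where 0.00929% of all tested genes lay higher and 0.204% lower by that criterion. The 1 h log2 ratios of the 183 genes had a median of 0.09, against 0.00 over 10724 tested genes. The ratio was above 0 in 124 of 183 genes (67.8%), against 49.3% of all tested genes, and at least 0.3 in 23 genes (12.6%), against 3.59%. At the other end, 10 genes (5.46%) were at or below -0.3, against 6.86%. The same 0 h libraries serve all 3 comparisons, so the 1 h ratios are not independent of those that chose the genes, and no test is given. Estimated counts gave the same medians of 0.09 and 0.00.

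The 5 highest 1 h ratios were those of Rab33a (0.75), Larp6 (0.62), Dyrk3 (0.58), Med18 (0.56) and Grrp1 (0.53). Rab33a was at 0.785 FPKM (0.293 to 1.28) at 0 h and 1.39 (0.689 to 2.09) at 1 h. Dyrk3, a kinase that dissolves RNA condensates, was at 8.53 (6.52 to 10.55) and 12.8 (9.74 to 15.9), and at 24.5 (19.5 to 29.4) by 8 h. Ythdf2 and Wtap had 1 h ratios of 0.42 and 0.30, and the median of the 20 RNA processing genes was 0.17. The lowest 1 h ratios were those of Crx (-0.81), Hfe2 (-0.56), Adora2b (-0.52), Proser2 (-0.49) and Chst1 (-0.37). Crx was at 1.32 (0.865 to 1.77) at 0 h and 0.709 (0.389 to 1.03) at 1 h. Its higher levels at 8 and 24 h thus came after a lower 1 h value, whose interval overlapped that at 0 h.

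The 24 h FPKM was within 1.2-fold of the 8 h FPKM for 166 of the 183 genes (90.7%), against 83.7% of all tested genes, and higher for 89 of the 183. Since the genes were chosen for passing at both times, their closeness is partly set by the rule. These values come from tables normalized separately, whose shared 0 h values differed by a constant factor of 1.0035. Ccdc96, a coiled-coil protein, was the only gene whose intervals at the 2 times lay apart: it stood at 1.34 FPKM (0.958 to 1.72) at 0 h, 4.68 (3.65 to 5.72) at 8 h and 2.92 (2.22 to 3.63) at 24 h. The next lowest log2 ratios of 24 h to 8 h were those of Kcng1 (-0.41), Acot6 (-0.39), Chst12 (-0.38) and Sobp (-0.31). The highest were those of Fam46b (0.43), Pxylp1 (0.43), Stbd1 (0.41), Proser2 (0.39) and Sema6b (0.39).

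The transcripts of the 183 genes have few exons. All 183 are protein-coding in GENCODE M21, and with 1 representative transcript per gene they had a median of 2 coding exons, against 9 over 10519 tested protein-coding genes. A single coding exon was found in 70 of 183 (38.3%, 95% Wilson interval 31.5 to 45.5), against 578 of 10519 (5.49%). Of these 70, 47 have a further noncoding exon, and 23 genes have no junction at all. The median was 1.36 coding exon junctions per kilobase of coding sequence, against 6.24. Lengths differed less: the coding sequence had a median of 1236 bases against 1386, the 3′ UTR 825 against 1049, and the GC content was 52.2% against 50.3%. Genes that share an ancestor, such as paralogues, are not independent, so the interval describes the count only.

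The share of tested genes that were raised at both times fell with the number of coding exons. It was 12.1% among genes with 1 coding exon, 5.02% with 2 and 3.70% with 3 to 4. With 5 to 9 coding exons it was 0.918%, with 10 to 19 it was 0.326%, and with 20 or more it was 0.128% (2 of 1558 genes). The median log2 ratios of all tested genes in these classes at 1 h were -0.01, 0.02, 0.04, 0.02, -0.01 and -0.06. They were highest with 3 to 4 coding exons and fell in the classes above. At 8 h these medians were 0.41 with 1 coding exon, 0.34 with 2, 0.10 with 3 to 4, and -0.01, -0.04 and -0.04 in the 3 classes above. At 24 h they went from 0.39 to -0.04 over the same classes, so the exon-poor classes lay higher as a whole. Most of the 578 genes with a single coding exon were thus not raised at both times.

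**Figure D4:**
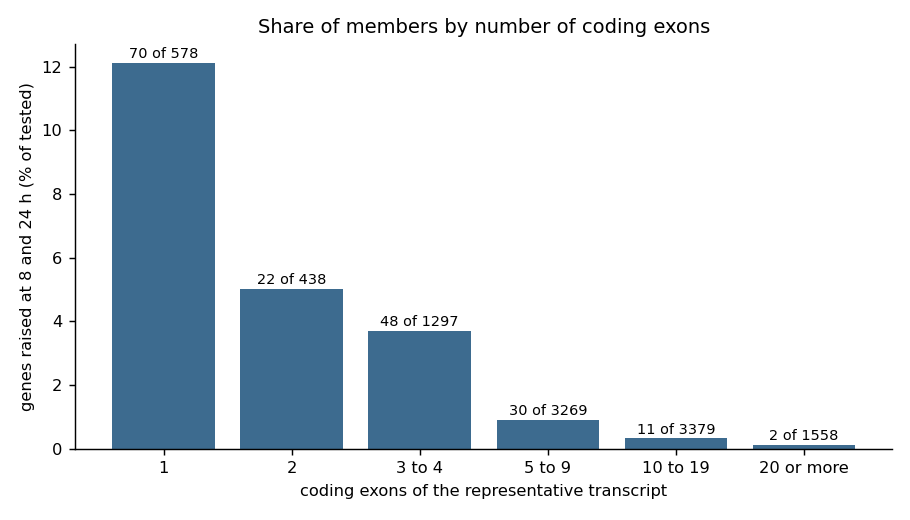
Percentage of tested protein-coding genes that were raised at both 8 and 24 h (vertical axis, from 0) by the number of coding exons of the representative transcript (horizontal axis), with the numbers of genes above the bars. The share is 12.1% for genes with 1 coding exon and 0.128% for those with 20 or more.

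Few exons were also seen among the genes that moved the other way. Of the 28 genes lowered at 8 and 24 h, 24 are protein-coding; they had a median of 2 coding exons, and 10 of 24 (41.7%, Wilson interval 24.5 to 61.2) had a single one, among them Slitrk1, Diras2, Jrk and Snn. Estimated counts were at least 1.5-fold lower at both times for 9 of these 10. Few coding exons were thus found in genes that moved in either direction. The last junction lay at a median of 647.5 bases before the end of the coding sequence in the 160 spliced raised genes, 140 in the 19 spliced lowered genes and 143 in all 10265 spliced tested genes. The lowered genes were few, and this difference carries no test.

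A last junction at least 400 bases before the end of the coding sequence was found in 116 of the 160 spliced raised genes (72.5%), against 14.95% of all spliced tested genes. An internal exon of at least 400 bases was present in 52 of the 114 with an internal exon (45.6%), against 21.5%. The 5 longest uninterrupted coding sequences were those of Gprin1 (2799 bases), Hps6 (2418), Cmtr2 (2304), Lrrn2 (2193) and Exoc8 (2151). Gprin1, a G protein effector of neurite growth, went from 1.29 FPKM (0.937 to 1.64) to 3.15 (2.43 to 3.87) at 8 h and 3.40 (2.62 to 4.18) at 24 h.

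Exon-rich genes were rare, with 13 of 183 (7.10%) at 10 or more coding exons, against 46.9% of tested genes. They included Exo1, Dchs1, Sema6b, Jakmip2, Sncaip, Ssh1 and Shroom2. In 10 of the 13 the last junction lay farther from the end of the coding sequence than the median of all tested genes, against 42.3% of tested genes with as many exons, and their median distance was 381 bases against 128. Dchs1, a large cadherin of planar polarity, has 20 coding exons with the last junction 2612 bases before the end. It went from 3.66 FPKM (2.72 to 4.60) to 7.79 (6.21 to 9.37) at 8 h and 6.50 (5.21 to 7.79) at 24 h. The exceptions were Exo1 (136 bases), Sncaip (6) and Jakmip2, whose last junction follows the stop codon by 20 bases.

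**Figure D5:**
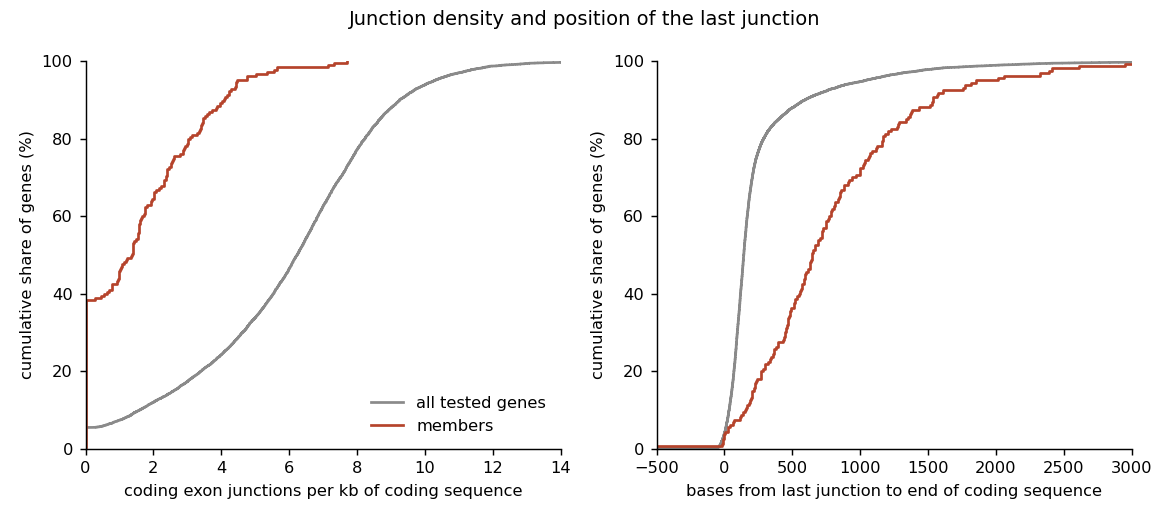
Cumulative percentage of genes (vertical axes) by coding exon junctions per kilobase of coding sequence (left) and by the number of bases from the last splice junction to the end of the coding sequence (right, spliced genes, positive before the end), for the raised genes (red) and all tested protein-coding genes (grey). The red curve lies left of the grey one for junction density (medians 1.36 and 6.24) and right of it for the distance (medians 647.5 and 143 bases).

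The number of consensus sites per transcript was close to that of other genes. Counting GGACT on the sense strand, the median was 3 sites per transcript in the raised genes and in all tested genes, and 92.3% against 92.7% had at least 1. Per kilobase of coding sequence the medians were 1.23 and 1.08. What differed was where the sites lay: 571 of 735 sites (77.7%) in the raised genes were at least 150 bases from any junction, against 51.8% of the sites in all tested genes. The sites followed the bases available, since 79.4% of all bases of the raised transcripts lie that far from a junction, against 56.2%. A GGACT within 50 bases of the end of the coding sequence was present in 40 of 183 genes (21.9%, Wilson interval 16.5 to 28.4), against 15.2% of tested genes. A site at least 150 bases from a junction was found in 84.2% of the raised genes, against 71.0%.

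Among the 578 genes with a single coding exon, the share raised at both times was 4 of 60 (6.67%) with no GGACT, 14.4% with 1, 12.4% with 2 to 3 and 12.2% with 4 or more. Among all tested protein-coding genes, by the number of GGACT at least 150 bases from a junction, the share was 0.950% with none, 1.25% with 1, 2.32% with 2 to 3 and 2.67% with 4 or more. That number also depends on how many bases lie far from a junction, and it was not separated from exon number. In all, 14 raised genes hold no GGACT in the representative transcript, including the GTPase genes Eras, Rasl11a and Rab9, and the rise of Rasl11a from 6.40 FPKM (4.64 to 8.15) to 19.2 (14.7 to 23.6) at 8 h was among the larger ones. Other forms of the m6A consensus were not counted.

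The promoters were searched for a few common motifs. RefSeq promoters (GRCm38.p6, from 250 bases before to 50 bases after the start) were found for 142 of the genes, 180 promoters in all, and read on both strands. TATAAA was present in 8.89% of them, against 6.71% of promoters of tested genes, CCAAT in 37.2% against 38.2%, GGGCGG in 63.3% against 64.7%, CACGTG in 7.22% against 10.3% and TGACGTCA in 3.33% against 3.08%. Each share was within a few percentage points of that of the tested genes. Neighbouring genes were looked at likewise. A tested gene within 10000 bases was found for 100 of the raised genes. The median log2 ratio of these neighbours was -0.01 at 8 h and -0.04 at 24 h. None of them was itself raised at both times, against 1.69% of all tested genes, so nothing is read from this count. Pou4f1, beside Rnf219, passed the fold limit at both times (1.11 and 0.85) without meeting the full rule. Chromosome 2 held the most, with 22 of 183 (12.02%), against 8.01% of tested genes.

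At the edge of the rule, Qprt (0.80 and 0.92), Rpusd2 (0.86 and 0.80) and Efna2 (0.80 and 0.86) lay just inside the fold limit. Bcar1 (0.84 at 8 h), Lrrc75a (0.83 at 8 h) and Med26 (0.80 at 24 h) lay just outside, each falling short of 0.8 at the other time by less than 0.01. A further 92 genes passed the fold limit at both times with overlapping intervals, and 3 were left out by name, all Zfp-numbered. The loci of 18 raised genes overlap another expressed locus, so their estimates are less certain: Lcmt2, Eras, Lipt1, Phax, Mrpl46, Pex13, Rnf113a2, Rpp25l, Ddx28, Hps6, Mterf4, Fam131b, Ccdc71, Fen1, Mrpl16, Rnf146, Apex1 and Mis12. Mrpl43 is not among them by its deposited locus. It has a gap of 0 bases to the tested gene Twnk (log2 ratios 0.58 and 0.33), so the same caution applies to it. Eif1a (91.1 FPKM at 0 h, 166 at 8 h and 164 at 24 h), Alyref2, Rnf113a2, Ttc30a1 and Timm8a1 have close copies elsewhere in the genome, and how reads shared with a copy were divided is not given in the sources used here.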

How the data were processed

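Polyadenylated RNA of 8 samples (4 groups, 2 replicates each) was sequenced. Per the submitters' processing notes, Cufflinks 2.2.1 and Cuffdiff were used with mm10. The aligner and the strandedness of counting are not given in the sources used here. Per the file headers, the authors deposited for each treated time against 0 h a table of FPKM with lower and upper bounds and a table of estimated counts, with 1 column per condition and a status. The deposited bounds, whose level is not stated, served as the interval. The authors normalized each table separately, so ratios were formed within a table.

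The log2 ratio was computed here from the deposited FPKM with a pseudocount of 0.1, which understates changes of low genes. Since replicates are pooled, no test across replicates could be made, and lists are described by counts and medians beside all tested genes. The members and lists were chosen with earlier results of these data known. Genes were named by rank (largest mean ratio, highest FPKM, extremes at 1 h and between times, threshold neighbours, longest single coding exon, list members); functional groups, name families and the other examples in them were chosen after the values were seen. GENCODE M21 (GRCm38) gave gene structure for 10793 of 10817 genes, 62 of them through RefSeq synonyms, from 1 transcript per gene (APPRIS rank first, coding length as the tie-break). Coordinates are 1-based. The selection was run on simulated data only to check that the rule works as written. The simulated rise was larger than that of most raised genes and the 0 h values were kept fixed. It therefore gives no error rate for these genes. Python 3.11.15, pandas 2.3.3 and scipy 1.17.1 were used. The depth, 31361518 to 32562075 estimated counts per condition, is after scaling; Wilson 95% intervals of shares cover counting error only.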

Additional observations from a re-analysis of the deposited data

How the results depend on the processing

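No paired analysis was possible because the deposited columns are pooled over the replicates, and for the same reason no replicate could be left out. Of 34 alternative settings, 26 left a value within its range or, for the number of genes, within 1.5 times. The number of genes raised at both times was 183, and it was 89 with a log2 ratio of at least 1 and 275 without the interval criterion. It was 130 with a pseudocount of 1 FPKM, 144 with at least 5 FPKM, 185 with no filter, 179 with ratios of estimated counts (168 genes shared with the 183) and 186 with the names kept. For the 89 genes with a log2 ratio of at least 1 at both times, the median 1 h ratio was 0.13, the junction density 0.69 per kilobase of coding sequence and the share with a single coding exon 48.3%. The share of GGACT sites far from a junction, with limits chosen after seeing the data, was 81.8% at 100 bases, 72.4% at 200 bases and 69.6% in genes with 2 or more coding exons, where all tested genes had 49.8%. The cause of these shifts was not tested. Depth limits the genes with low values most: 19 were under 1 FPKM at 0 h. The smallest estimated count at 0 h was 13.99.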
